A study of Homo sapiens with 16 samples.

Results

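The last 4 time points of a drug time series were compared, 42 and 45 h of treatment against 36 and 39 h, to ask which changes in gene expression went on after 36 h. These are 4 of the 16 arrays of the series, taken by their labelled treatment times with 2 on each side, and 11044 of the 20589 rows of the array table were tested because their detection p was under 0.05 on at least 2 of the 4 arrays. All cells were MCF-10A, a nontransformed human breast epithelial cell line that is grown with insulin, epidermal growth factor (EGF) and hydrocortisone, and both sides of the comparison had received 1 µM CP724,714, a small molecule that inhibits the kinase activity of HER2. RNA was taken from parallel cultures at intervals of 3 h and hybridized to 1 Illumina human Ref8v2 array per time point. The 0 h array is from untreated cells. No untreated culture followed over the same hours was used here, so the effect of the inhibitor cannot be told apart from time in culture, growing cell density and the medium given at the start. The pairs join neighbouring times and are not replicates of 1 condition, so the test measures only the spread between neighbouring arrays. Values are normalized log2 intensities, on which a difference of 1 is a 2-fold change, and a change in the cells of a culture cannot be told apart from a change in RNA per cell.

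A cell that leaves the division cycle stops making the messenger RNAs of that cycle in blocks. The genes of DNA synthesis are switched on before S phase by E2F factors. The genes of mitosis are switched on later, in G2, and many carry a promoter element called the cell cycle genes homology region (CHR) near the start of transcription, where the DREAM complex represses them in resting cells and the B-MYB and FOXM1 complexes activate them in dividing cells. Mammary epithelial cells in culture divide in response to EGF and insulin, and HER2 is a partner of the EGF receptor in that signal.

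The 100 bases before the start of transcription are shown for 5 mitosis genes described below and, for contrast, for MCM6, a subunit of the helicase that unwinds DNA for replication. Capitals mark the letters TTTGAA of the CHR, the letters CCAAT of the CCAAT box, and the E2F letters TTTGGCGC, TTTCCCGC, TTTCGCGC and TTTGCCGC, each on either strand. The sequences are from RefSeq (GRCh38.p14) and read 5′ to 3′ in the direction of the gene.
CENPA: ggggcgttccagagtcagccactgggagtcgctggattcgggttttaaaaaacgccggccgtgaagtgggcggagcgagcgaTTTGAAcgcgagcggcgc
KIF11: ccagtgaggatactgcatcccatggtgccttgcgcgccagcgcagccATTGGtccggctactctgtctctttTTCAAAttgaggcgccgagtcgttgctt
CCNB2: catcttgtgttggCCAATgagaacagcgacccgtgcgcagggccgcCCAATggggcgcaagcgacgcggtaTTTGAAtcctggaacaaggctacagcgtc
PLK1: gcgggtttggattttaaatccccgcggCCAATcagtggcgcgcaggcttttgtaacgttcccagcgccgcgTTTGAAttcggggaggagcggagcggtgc
CDCA8: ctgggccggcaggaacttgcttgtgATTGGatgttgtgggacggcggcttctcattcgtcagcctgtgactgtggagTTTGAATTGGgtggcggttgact
MCM6: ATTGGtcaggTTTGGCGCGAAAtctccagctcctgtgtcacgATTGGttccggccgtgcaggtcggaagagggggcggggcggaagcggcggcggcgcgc
The stretches lie at chr2:26785956-26786055 (CENPA), chr10:92593030-92593129 (KIF11), chr15:59105046-59105145 (CCNB2), chr16:23678789-23678888 (PLK1) and chr1:37692416-37692515 (CDCA8) on the plus strand and at chr2:135876444-135876543 (MCM6) on the minus strand. The CHR letters began 18 bases before the start in CENPA, 28 in KIF11, 29 in both CCNB2 and PLK1, and 23 in CDCA8, where they share a base with a CCAAT box. In MCM6 overlapping E2F letters began 90 and 86 bases before the start, and TTTGAA is not in the stretch shown.

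Over the window from 250 bases before to 50 bases after the start, 26 of the 35 tested mitosis genes found in the RefSeq table had TTTGAA in at least 1 of their promoters (74.3%), against 3 of 35 DNA replication genes (8.57%) and 18.2% of all 27305 genes of the table. The CCAAT letters were in 82.9% of the mitosis genes, 60% of the replication genes and 39.7% of all genes. The E2F letters were in 5.71% of the mitosis genes, 42.9% of the replication genes and 3.99% of all genes. Among the 7913 matched genes of all tested probes, TTTGAA was in 14%, the CCAAT letters in 43.9% and the E2F letters in 6.8%. Within the mitosis list TTTGAA was in 20 of the 28 matched genes that were lower at 42 and 45 h without overlap (71.4%) and in 6 of the 7 matched others (85.7%).

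The 4 arrays were close to each other. Pairwise correlation over the tested probes was between 0.990 and 0.995, the lower values being those of the 45 h array, and between 52.1% and 52.9% of rows of each array were above background. The number of probes that differed at least 1.7-fold between consecutive arrays was 736 from 33 to 36 h, 43 from 36 to 39 h, 62 from 39 to 42 h and 146 from 42 to 45 h, of which 105 were lower at 45 h. Markers of basal mammary epithelium were above background on all 4 arrays for 10 of 12 genes, among them KRT5, KRT17 and TP63, while KRT14 and LAMB3 were not above background on any. The summed intensity of the basal list ranged from 119343 to 119926 at 36 and 39 h and from 117799 to 127973 at 42 and 45 h. Of the markers of other cells, those above background on all 4 arrays were 2 of 10 fibroblast genes (FAP and DPT) and 2 of 10 leukocyte genes (CD14 and CD68). So were 2 of 9 endothelial genes (PECAM1 and KDR) and 2 of 8 luminal hormone receptor genes (FOXA1 and AGR2). ESR1, PGR, COL1A1, CD3D and CDH5 were above background on none. The summed intensity of the fibroblast list ranged from 1120 to 1222 at 36 and 39 h and from 1033 to 1151 at 42 and 45 h. That of the leukocyte list went from 1662 to 1792 and from 1704 to 1833, that of the endothelial list from 575 to 577 and from 553 to 557, and that of the luminal list from 520 to 558 and from 499 to 548.

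Across all tested probes little changed after 36 to 39 h. In limma, 3 probes (0.0272%) were lower at 42 and 45 h at an adjusted p under 0.05 and 0 were higher, while at an unadjusted p under 0.05 there were 472 lower (4.27%) and 352 higher (3.19%). In the same fit the pair before, 36 and 39 h against 30 and 33 h, had 1916 probes higher and 1912 lower. The median difference over all probes was 0.0060. Between the pairs 13 probes (0.118%) were at least 1.7-fold lower and 2 (0.0181%) at least 1.7-fold higher. Besides EZH2, NDC80, CDC25C and SPC25, which are described below, the 13 include PKMYT1, a kinase that restrains CDK1, SGO2 (SGOL2 on the array), which protects the cohesion of centromeres, and TROAP, a spindle-associated protein, all named after their values were seen. Their log2 differences were -0.91 for PKMYT1, -0.89 for SGOL2 and -0.87 for TROAP. The 13 also include TNFAIP8L1 with -0.83, SMTN with -0.81 and overlapping pairs, and DUSP6, a gene of the ERK feedback list, with -0.77. DUSP6 was above background on 1 of the later arrays. OR5P3, also among the 13, was not above background at 42 and 45 h and was at least 1.42-fold lower there. SGOL2 was above background on only 1 of the later arrays, and PKMYT1 read 8.68, 8.44, 8.32 and 6.99, so most of its difference lay on the 45 h array.

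EZH2 is the histone methyltransferase of the Polycomb repressive complex that marks silent chromatin. Its called probe read 7.26 at 36 h, 7.54 at 39 h, 6.24 at 42 h and 6.35 at 45 h, after a mean of 8.57 over 24 to 33 h. Both later arrays lay below both earlier ones, and the difference of -1.10 (SE 0.17) was a 2.14-fold fall (adjusted p = 0.0429, limma). The array has a second, brighter EZH2 probe, which read 9.11 at 36 h, 8.73 at 39 h, 8.75 at 42 h and 8.75 at 45 h. That probe was as low at 39 h as afterwards, with a difference of -0.17 (SE 0.12), so the fall of EZH2 after 39 h rested on 1 of its 2 probes.

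NDC80 (KNTC2 on the array) is the part of the outer kinetochore that grips microtubules. It read 8.58 at 36 h, 8.18 at 39 h, 7.41 at 42 h and 7.57 at 45 h. The later arrays lay below the earlier ones with a difference of -0.89 (SE 0.14, adjusted p = 0.0429). NOP56 (NOL5A on the array) is a core protein of the box C/D particles that methylate ribosomal RNA, and it read 12.17 at 36 h, 12.15 at 39 h, 11.79 at 42 h and 11.65 at 45 h. It had stood at 13.48 over 24 to 33 h, so a step of -1.31 at 36 h was followed by a level stretch to 39 h and a fall with a difference of -0.45 (SE 0.073, adjusted p = 0.0442). The 3 calls were lost when the spread was taken from the 4 arrays alone or from all 16 arrays, when no intensity trend was fitted, with a larger offset of 50, and without background correction. Leaving out the 42 h array gave 219 lower and 37 higher probes, leaving out the 39 h array gave 38 and 2, and leaving out the 36 h or the 45 h array gave 0 lower.

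**Figure D1:**
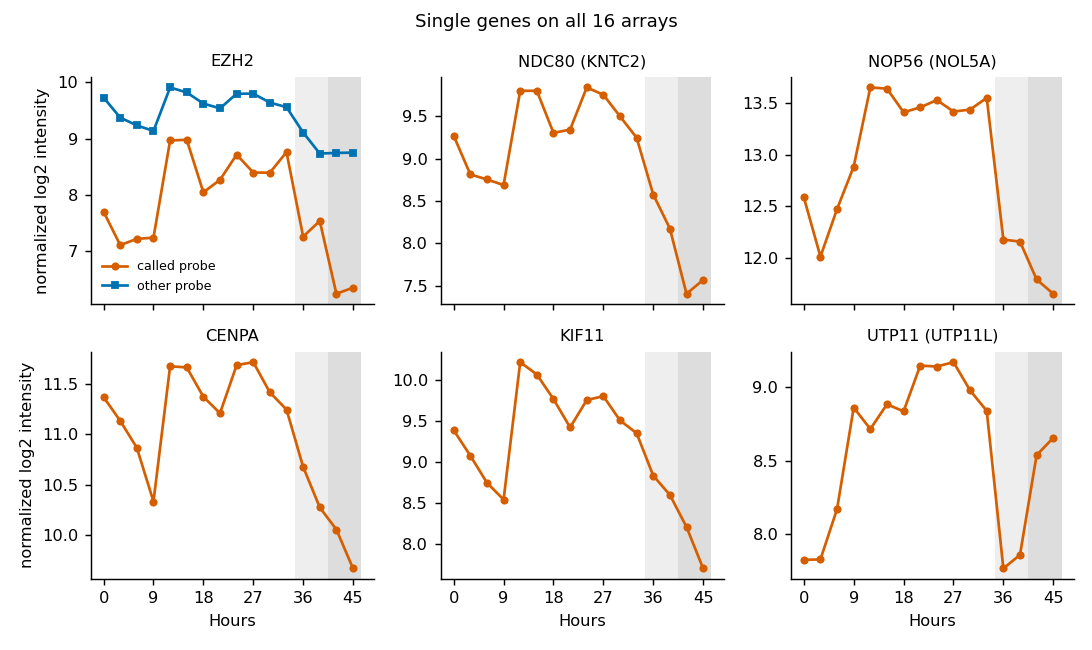
Normalized log2 intensity (vertical axis) on each of the 16 arrays (horizontal axis, hours of treatment) for EZH2, NDC80, NOP56, CENPA, KIF11 and UTP11, with 36 and 39 h shaded light and 42 and 45 h shaded dark. NDC80, CENPA and KIF11 are lower at 42 and 45 h than at 36 and 39 h, the 2 EZH2 probes part after 39 h, and UTP11 is higher at 42 and 45 h.

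The mitosis genes were lower on the later arrays. Of 50 listed genes 45 were on the array and 44 were tested, and 36 of the 44 (81.8%) had both later arrays below both earlier ones, against 15.9% of all tested probes. None was higher without overlap, against 18.3% of all probes. By the limma test 1 member, NDC80, was called, and 35 were lower at an unadjusted p under 0.05. The median difference was -0.54 with a range of -0.90 to 0.035, and 43 of 44 differences were below 0. Falls between neighbouring pairs were also seen earlier. The list median was -0.35 for 18 and 21 h against 12 and 15 h. It was 0.18 for 24 and 27 h against 18 and 21 h, and -0.29 for 30 and 33 h against 24 and 27 h. A fall of the list was thus not particular to the hours after 36 h. For 34 members each array was lower than the one before, from 36 through 45 h, which held for 6.39% of all tested probes. Relative to 24 to 33 h, the median member stood at -0.76 at 36 h, -1.13 at 39 h, -1.23 at 42 h and -1.70 at 45 h. The steps were not even: that from 39 to 42 h was small and that from 42 to 45 h was large. Without the 45 h array the median difference was -0.29, with 37 members lower without overlap against 31.7% of all probes at that setting, and without the 36 h array it was -0.32, with 36 lower against 28.7%.

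**Figure D2:**
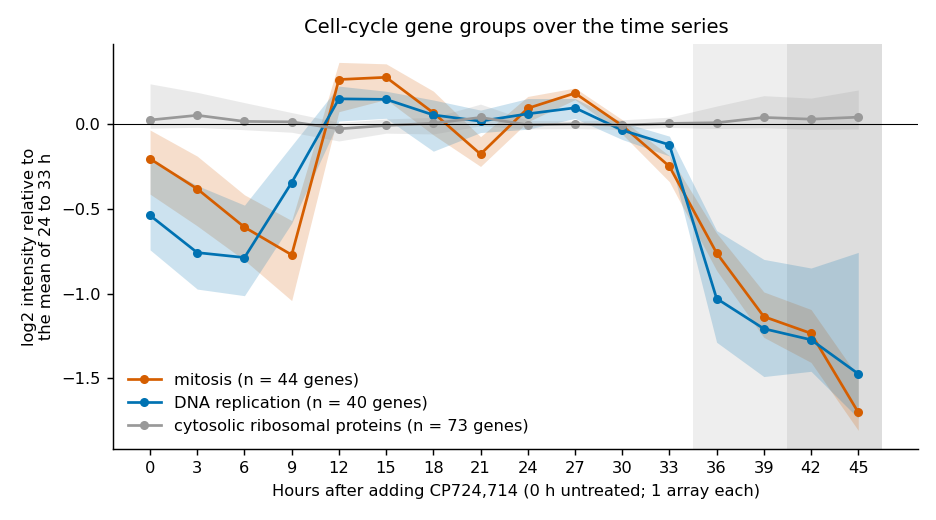
Median log2 intensity of 3 gene groups relative to each gene's mean over 24 to 33 h (vertical axis) on each array (horizontal axis, hours), with bands for the middle 50% of genes. The mitosis genes go from -0.76 at 36 h to -1.70 at 45 h, the DNA replication genes drop to -1.03 at 36 h and then change less, and the ribosomal protein genes stay near 0.

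The outer kinetochore and centromere genes had a median difference of -0.67 over 6 tested members. Of these 5 (83.3%) were lower without overlap, against 15.9% of all probes. SPC25 (SPBC25 on the array), a partner of NDC80 in the same complex, read 8.90 at 36 h, 8.38 at 39 h, 7.92 at 42 h and 7.56 at 45 h. Each array was lower than the one before, and the difference was -0.90 (SE 0.18, adjusted p = 0.166), which did not pass the test. NUF2 (CDCA1), the third protein of the complex measured, was lower by only 0.22 in its brighter probe, which overlapped, while its dimmer probe was not above background at 42 and 45 h and was at least 1.33-fold lower there. CENPA, the histone H3 variant that marks centromeres, read 10.68, 10.27, 10.05 and 9.66 in order of time, a difference of -0.62 (SE 0.13, adjusted p = 0.181). CENPE, a kinetochore motor, and CENPF, a large kinetochore protein, differed by -0.72 and -0.58.

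The kinesins, the motors that build and move the spindle, had the lowest median of the groups, at -0.69 over 6 members. KIF11, which pushes spindle poles apart, read 8.84 at 36 h, 8.60 at 39 h, 8.21 at 42 h and 7.71 at 45 h, and KIF20A, which acts in cytokinesis, read 11.06, 10.63, 10.32 and 9.87. Their differences were -0.76 (SE 0.16, adjusted p = 0.173) and -0.75 (SE 0.15, adjusted p = 0.166). KIF2C, which takes microtubules apart at the kinetochore, and KIF4A, a chromosome motor, differed by -0.64 and -0.75. KIFC1, a minus-end motor, was the 1 member of the whole list with a difference above 0 and read 6.73, 6.77, 6.68 and 6.89, with overlapping pairs.

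The mitotic kinases and their activators had a median of -0.59, and 5 of 6 (83.3%) were lower without overlap, against 15.9% of all probes. CDCA8, a subunit of the Aurora B complex, differed by -0.75, TPX2, which activates Aurora A, by -0.65, AURKB by -0.62, AURKA (STK6) by -0.55 and PLK1 by -0.43, and all 5 pairs lay apart. BIRC5, another subunit of the Aurora B complex, had overlapping pairs and a difference of -0.13. Each of the 5 spindle checkpoint genes had its later pair below its earlier one without overlap, against 15.9% of all probes. Of these TTK, BUB1, BUB1B and MAD2L1 differed by between -0.56 and -0.41, and BUB3 differed by -0.15.

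Among the genes that drive entry into and exit from mitosis, CDC25C, the phosphatase that activates CDK1, read 8.51 at 36 h, 7.97 at 39 h, 7.64 at 42 h and 7.21 at 45 h. The difference of -0.81 (SE 0.18) was the largest of the cyclin and CDK1 group, and its step at 36 h had been small, at -0.31. CCNA2 differed by -0.62, CDK1 (CDC2) by -0.55, CCNB1 by -0.44 and CCNB2 by -0.33. The median of this group was -0.39, with 7 of 8 members (87.5%) lower without overlap, against 15.9% of all probes. CDC20 and UBE2C, which target proteins for destruction at anaphase, differed by -0.45 and -0.56, and FOXM1, a transcription factor of these genes, by -0.55. MKI67, the proliferation mark Ki-67, read 7.05, 6.77, 7.03 and 6.47, with overlapping pairs.

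**Figure D3:**
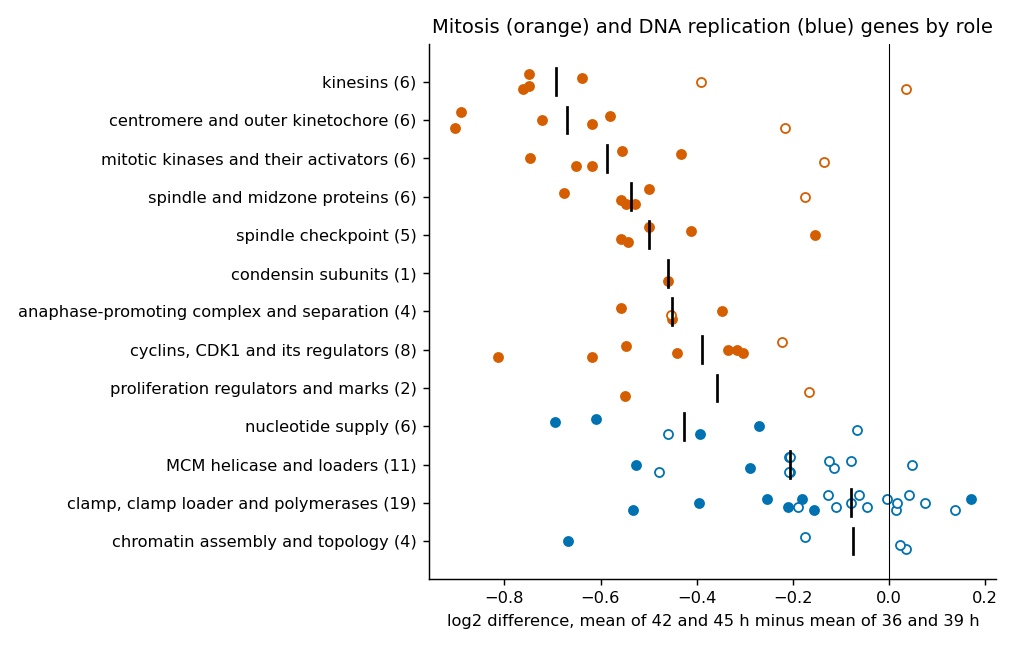
Log2 difference of each tested mitosis gene (orange) and DNA replication gene (blue) between the means of 42 and 45 h and of 36 and 39 h (horizontal axis), by role with the number of genes (vertical axis). Filled points are genes whose pairs do not overlap, bars are medians, and the kinesin median is -0.69 against -0.078 for the clamp, clamp loader and polymerase genes.

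The DNA replication genes were already low at 36 h and differed less afterwards. The difference between the lists was not tested. Of 45 listed genes 40 were tested, and 13 (32.5%) were lower without overlap and 1 was higher, against 15.9% and 18.3% of all probes. None was called, 11 were lower at an unadjusted p under 0.05, and the median difference was -0.17. At 36 h the median member stood 1.03 below its mean over 24 to 33 h, and the mean of 42 and 45 h then differed from 39 h by a median of -0.035. With 1 array left out, 2 arrays are set against 1 and more of all probes do not overlap. The count was then 31 of 40 without the 39 h array, where 31.5% of all probes were lower without overlap. It was 23 without the 42 h array (35.7%), 21 without the 45 h array (31.7%) and 14 without the 36 h array (28.7%). The median was -0.035 without the 36 h array and -0.29 without the 39 h array.

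FEN1, the nuclease that trims Okazaki fragments, read 9.16 on average over 24 to 33 h and then 7.37 at 36 h, 7.13 at 39 h, 7.36 at 42 h and 7.18 at 45 h. POLE2, a subunit of the leading-strand polymerase, went from a mean of 8.93 to 7.02 at 36 h, 6.65 at 42 h and 6.86 at 45 h. For both the larger change came at 36 h, with steps of -1.79 and -1.91, and the later pair then differed from the earlier one by 0.015 for FEN1 and by -0.25 (SE 0.14) for POLE2. MCM6 was above background on only 1 array of each pair, and its later values are near the limit of the array. The sliding clamp PCNA read 11.97, 11.86, 11.76 and 11.91 from 36 to 45 h, and MCM2 read 8.49, 8.36, 8.38 and 8.31. The median difference was -0.21 for the MCM helicase and its loaders and -0.078 for the clamp, clamp loader and polymerase genes.

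The enzymes that supply nucleotides had the lowest median of the replication groups, at -0.43 over 6 members. Of these 4 (66.7%) were lower without overlap, against 15.9% of all probes, and 1 was lower at each step from 36 to 45 h. RRM2, the regulated subunit of ribonucleotide reductase, read 7.62 at 36 h, 6.97 at 39 h, 6.51 at 42 h and 6.68 at 45 h. TK1, thymidine kinase, read 10.52, 10.36, 10.11 and 9.55. Outside this group, among the chromatin assembly and topology genes, TOP2A read 11.47, 10.98, 10.80 and 10.32. It is the topoisomerase that untangles chromosomes and is also used in mitosis. The differences were -0.70 (SE 0.20) for RRM2, -0.61 (SE 0.13) for TK1 and -0.67 (SE 0.15) for TOP2A, with no overlap for any of the 3.

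To ask how the large step at 36 h related to what came later, arrays were used once each: the step was the 36 h array minus the mean of 24 to 33 h, and what followed was the mean of 42 and 45 h minus the 39 h array. A step down of at least 1.7-fold was seen for 446 probes (4.04%) and a step up for 496 (4.49%). After a step down, 95 probes (21.3%) went at least 1.2-fold lower, against 8.69% of all probes, and 71.7% stayed within 1.2-fold. After a step up, 47 (9.48%) went at least 1.2-fold higher, against 7.99% of all probes, and 85.3% stayed within 1.2-fold. With the 36 and 39 h arrays in each other's place the shares were 46.8% of the probes that stepped down, against 11.0% of all probes, and 28.4% of those that stepped up, against 10.8%.

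Of the 22 mitosis genes that stepped down at least 1.7-fold, 13 (59.1%) went at least 1.2-fold lower, and of 26 DNA replication genes 4 (15.4%) did. Of 8 ribosome biogenesis genes that stepped down 3 went at least 1.2-fold lower. In that list of 25 tested genes the median difference was -0.071, and besides NOL5A, TSR1, a factor of small subunit assembly named here after its values were seen, differed by -0.59 (SE 0.13).

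The genes with the largest steps up at 36 h were near level afterwards. TNFSF10, the death ligand TRAIL, went from a mean of 6.08 over 24 to 33 h to 9.48 at 36 h. It then read 9.54 at 39 h, 9.43 at 42 h and 9.81 at 45 h. Before the step it had already risen from 5.38 at 24 h to 7.11 at 33 h. FBXO32, a ubiquitin ligase of muscle wasting, went from 8.76 to 11.84 and then read 12.07, 11.98 and 12.25, after 8.24 at 24 h and 9.51 at 33 h. The other large steps up, MGC17330, SELENOP (SEPP1) and DEPP1 (C10orf10), were of 3.11, 3.01 and 2.86 and were followed by changes of between -0.015 and 0.037. From 24 to 33 h MGC17330 had risen from 5.93 to 7.49 and SELENOP from 5.51 to 6.90, while DEPP1 read 7.18 and 7.33. A second FBXO32 probe stepped up by 0.88 and then changed by -0.29. All 14 genes of the FOXO and quiescence list that stepped up at least 1.7-fold stayed within 1.2-fold afterwards, against 85.3% of all probes that stepped up. Of 13 glucocorticoid-induced genes that stepped up, 11 (84.6%) stayed within 1.2-fold, which is near the share of all such probes. DTL, a substrate receptor that marks CDT1 for destruction, and RPS26, a ribosomal protein, were among the 5 largest steps down, at -1.80 and -1.63, with later changes of -0.14 and -0.23. RPS26 has many near-identical pseudogene copies, so its reading is uncertain.

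**Figure D4:**
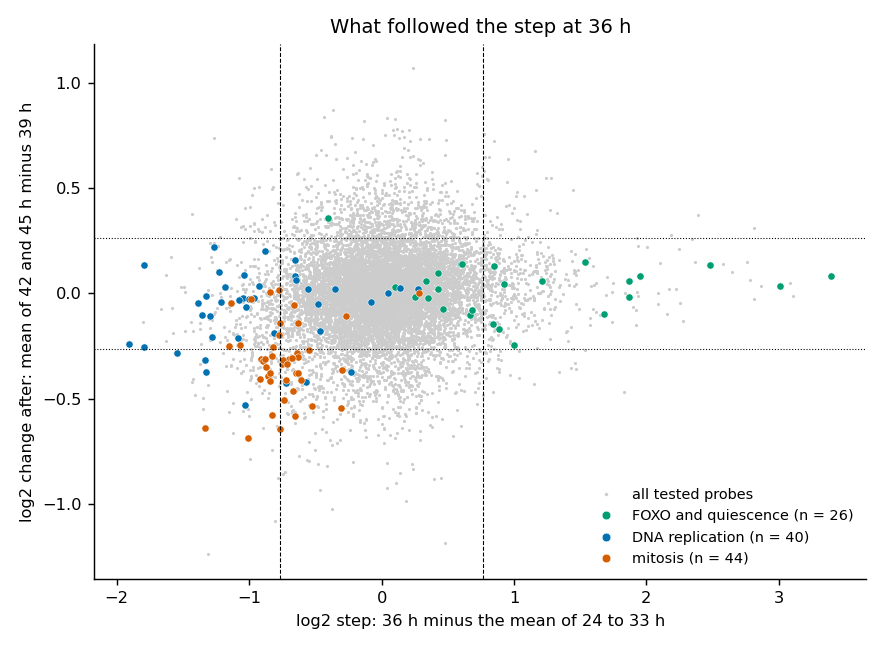
Each tested probe by its log2 step at 36 h against the mean of 24 to 33 h (horizontal axis) and by the log2 change from 39 h to the mean of 42 and 45 h (vertical axis), with dashed lines at 1.7-fold and dotted lines at 1.2-fold. Mitosis genes lie in the lower left, DNA replication genes left and near 0, and the FOXO and quiescence genes that stepped up lie between the dotted lines.

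The other lower genes chosen by the naming rule were PBK, a kinase of mitotic cells, with a difference of -0.53, KIF20B (MPHOSPH1), a kinesin of cytokinesis, with -0.53, SAPCD2 (C9orf140) with -0.54 and DKFZp762E1312 with -0.81. None passed the test, with adjusted p between 0.135 and 0.196.

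No increase passed the test. The smallest adjusted p was that of UTP11 (UTP11L on the array), a protein of the complex that processes the small ribosomal subunit RNA. It had been at 9.03 over 24 to 33 h and read 7.77 at 36 h, 7.86 at 39 h, 8.54 at 42 h and 8.66 at 45 h. Its value thus came back most of the way after the step, with a difference of 0.78 (SE 0.14, adjusted p = 0.0664). UQCRH, a subunit of respiratory complex III, differed by 0.42 (SE 0.077, adjusted p = 0.119), TRAPPC6A, of the vesicle tethering complex TRAPP, by 0.50, KANK2 (ANKRD25), a regulator of the cytoskeleton, by 0.41, NME3, a nucleoside diphosphate kinase, by 0.33, and ALKBH7, a mitochondrial dioxygenase, by 0.29. The difference was largest for DOC2A, a calcium sensor of exocytosis, which read 7.22, 7.54, 7.84 and 8.78 and differed by 0.94 (SE 0.25, adjusted p = 0.323), so the 45 h array held much of it. TPD52, above background on 1 of the earlier arrays, and CABYR differed by 0.69 and 0.73. The other 3 genes of the rule were not above background at 36 and 39 h, and at 42 and 45 h they were at least 1.11-fold higher for LCE1F, 1.34-fold for SLCO1B1 and 1.47-fold for ZBTB41, with the dimmest intensity above background as each array's floor.

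Clock genes differed in both directions. In the circadian loop CLOCK, NPAS2 and BMAL1 activate the genes of their own repressors and of output factors, and those repressors then shut the activators down. Of 15 tested genes 6 (40%) were lower and 4 (26.7%) higher without overlap, against 15.9% and 18.3% of all probes, and none was called. The 6 lower genes were the repressors PER1, PER2, CRY2, CIART (C1orf51) and BHLHE40 (BHLHB2) and the output factor TEF. PER1 read 7.19 at 36 h, 7.04 at 39 h, 6.66 at 42 h and 6.62 at 45 h, and BHLHE40 read 11.50, 11.69, 11.20 and 11.29. Their differences were -0.48 (SE 0.19) and -0.36 (SE 0.098). PER2 read 9.99, 10.36, 9.99 and 9.93, a difference of -0.22 (SE 0.25), so only its 39 h array stood apart. Earlier in the series PER2 had fallen further, from 9.95 at 12 h to 7.88 at 21 h and from 9.88 at 24 h to 7.99 at 33 h. CIART fell over the same hours, from 6.99 to 5.88 and from 7.10 to 6.14. Falls of PER2 and CIART were thus not particular to the last arrays. The 4 higher genes were the 3 activators and NFIL3, which represses output genes. BMAL1 (ARNTL) read 8.10, 8.27, 8.46 and 8.60, a difference of 0.34 (SE 0.17), and NFIL3 read 9.67, 9.81, 9.97 and 10.18, a difference of 0.33 (SE 0.11). For CLOCK the 39, 42 and 45 h arrays read 6.57, 6.57 and 6.59, so its pairs differed through the 36 h array.

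**Figure D5:**
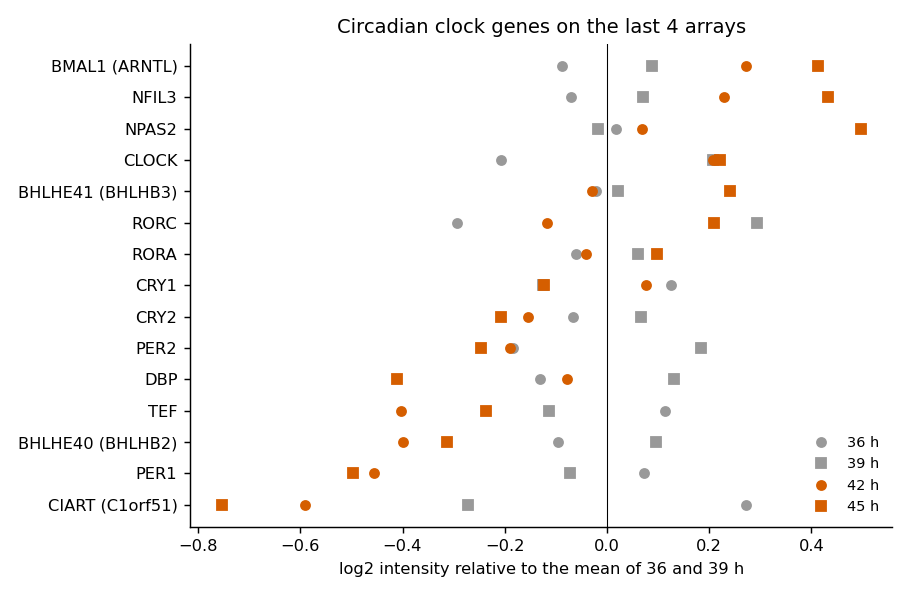
Log2 intensity of 15 circadian clock genes on the last 4 arrays, relative to each gene's mean at 36 and 39 h (horizontal axis), with 36 and 39 h in grey and 42 and 45 h in orange. CIART, PER1, BHLHE40 and TEF have both orange points left of both grey ones, and NFIL3 and BMAL1 have them on the right.

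No gene of the inflammation or interferon lists passed the test. Of 20 tested chemokine and cytokine genes 7 (35%) were higher and 3 (15%) lower without overlap, against 18.3% and 15.9% of all probes, with a median difference of 0.17, and 5 were higher and 2 lower at an unadjusted p under 0.05. The neutrophil attractant CXCL1 read 9.51 at 36 h, 9.67 at 39 h, 10.06 at 42 h and 10.04 at 45 h. IL8, CXCL1 and CCL20, the attractant of the receptor CCR6, differed by 0.40 (SE 0.16), 0.45 (SE 0.13) and 0.31 (SE 0.10). The serum amyloid genes SAA1 and SAA2 differed by 0.45 and 0.74. A second SAA1 probe overlapped, with 0.12, and as near-identical genes they may share signal. NFKB2 went the other way, with -0.44. Of 29 interferon-stimulated genes 6 were higher without overlap (20.7%), a share near the 18.3% of all probes, and 1 was lower. The median was 0.15, and 25 had a difference above 0, as did 51.6% of all probes. IFIT2, which binds foreign RNA, read 6.55, 6.61, 6.97 and 7.46, and the transcription factors IRF7 and IRF1 differed by 0.52 and 0.34. A second IRF7 probe had overlapping pairs and a difference of -0.23. Genes in this and the next paragraph were named after their values were seen.

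Of 22 tested histone genes 10 (45.5%) were higher and 3 (13.6%) lower without overlap, against 18.3% and 15.9% of all probes, with a median of 0.10. None was called. HIST1H1C, a linker histone, read 10.63 at 36 h, 11.06 at 39 h, 11.16 at 42 h and 11.66 at 45 h, and HIST1H2BD and HIST1H2BK differed by 0.36 and 0.38. H2AFX and H2AFZ, variant histones linked to damage repair and promoters, were lower by -0.36 and -0.19. HIST1H4C read 13.99, 14.41, 13.67 and 14.05 after a mean of 15.35 over 24 to 33 h. Histone genes of 1 class resemble each other closely, so a probe may read several of them.

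The genes that the study names, many of them of glucose metabolism and insulin signalling, differed little over these hours. Of 23 tested, none was called, 2 (8.70%) were higher and 5 (21.7%) lower without overlap, against 18.3% and 15.9% of all probes, and the median difference was -0.037. VAMP8, a protein of vesicle fusion, read 14.27 at 36 h, 14.40 at 39 h, 14.33 at 42 h and 14.54 at 45 h. PHGDH, the first enzyme of serine synthesis, read 12.14, 12.12, 11.99 and 12.08. Their differences were 0.10 (SE 0.075, adjusted p = 0.786) and -0.10 (SE 0.072, adjusted p = 0.786), and PSAT1, the next enzyme of the pathway, differed by -0.24 (SE 0.10). INSR, the insulin receptor, read 6.40, 6.74, 6.95 and 7.24 and differed by 0.53 (SE 0.22, adjusted p = 0.572), and its adaptor IRS1 read 9.30, 9.46, 9.61 and 9.87 and differed by 0.36 (SE 0.13, adjusted p = 0.540).

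PDK4, a kinase that turns off pyruvate dehydrogenase, stood 2.48 above its mean over 24 to 33 h at 36 h. Part of that rise came earlier, from 5.90 at 24 h to 8.21 at 33 h. From 36 to 45 h it read 9.49, 9.77, 9.72 and 10.10, a difference of 0.28 (SE 0.26). PDK2 differed by 0.21 and PDK3 was not above background at 42 and 45 h, where it was at least 1.26-fold lower. GAPDH read 14.09, 13.96, 13.99 and 13.62. Its difference of -0.21 lay mostly on the 45 h array, as did that of PKM2 (pyruvate kinase), which read 10.22, 10.16, 10.12 and 8.87, with overlapping pairs in a second probe, and that of ALDOA (aldolase), which read 13.93, 13.80, 13.89 and 13.18. Of 32 glycolysis and glucose transport genes 8 (25%) were lower and 2 (6.25%) higher without overlap, against 15.9% and 18.3% of all probes, with a median of -0.083.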

How the data were processed

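The authors deposited bead intensity values on a linear scale, before normalization, and beside each a detection p-value set against negative control beads. The labels name no batch. Their methods state quality control and quantile normalization. The aligner of probes, annotation build and background correction are not given in the sources used here. In 19092 of the 20589 rows the deposited detection p-value is a multiple of 1/708 (tolerance 0.001). Starting from the deposited intensity values, normexp background correction (offset 16) and then quantile normalization across the 16 arrays gave the log2 values, in R 4.3.3 with limma 3.58.1. Figures used matplotlib 3.10.9. The offset understates changes of dim probes, and the number of arrays limits the precision.

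The contrast of 42 and 45 h against 36 and 39 h was fitted with limma (lmFit and eBayes with an intensity trend, two-sided) over the 12 arrays from 12 to 45 h as 6 pairs of neighbouring times, with Benjamini-Hochberg adjustment over 11044 probes and calls under 0.05. An exact permutation test of 2 against 2 arrays cannot go below 0.333 and was not run. Gene lists are described by counts and medians over each gene's brightest probe on the 4 arrays. The members and lists were chosen with earlier results of these data known. Genes named by rule are the 12 largest called differences each way, filled with the lowest p among probes without overlap, the genes the paper names, and the 5 largest steps each way at 36 h. Other named genes, among them many mitosis, replication, clock and glycolysis genes, are examples that these rules did not pick. Of 10513 tested symbols, 7716 were current in RefSeq, 2007 were a synonym of 1 gene, 776 had no match or several, and 14 were turned into dates and are not named. The array symbol follows in brackets where it differs. The script was tested on simulated data with known changes and independent noise, without drift inside the pairs. That test therefore does not cover how the calls behave where neighbouring times differ. Alternatives tried were skipping the background step, a larger offset (50), scaling by medians, cyclic loess, quantile normalization of the 4 arrays alone, other filters, fits on 4 or 16 arrays, no trend, another start of the step, swapped 36 and 39 h arrays, and leaving out each array.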

Additional observations from a re-analysis of the deposited data

How the results depend on the processing

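The number of lower probes at an adjusted p under 0.05 in limma was 0 without background correction, with an offset of 50, with 4 or 16 arrays in the fit and without a trend, and 1 with median scaling. With 1 array left out it ran from 0 to 219, and that of higher probes from 0 to 37, both highest without the 42 h array (unadjusted, 1683 probes had p under 0.05 there against 824 in the main setting). A single array is then assumed to vary like the other pairs. Without a filter 1 probe, UTP11L, was higher. Probes at least 1.7-fold lower numbered 0 without background correction, 5 with an offset of 50 and 15 to 122 with 1 array left out, and those at least 1.7-fold higher 0 without background correction, 1 with an offset of 50, median scaling or cyclic loess, and 4 to 23 with 1 array left out. The mitosis count without overlap was 35 or 36 in every setting that kept all arrays and 36 to 43 with 1 left out, where 28.7% to 35.7% of all probes were lower without overlap, and its median -0.55 to -0.41 and -0.76 to -0.29. For DNA replication, leaving out 1 array gave 14 to 31 members and a median of -0.29 to -0.035.

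After a step down, the share at least 1.2-fold lower was 12.5% without background correction, 27.2% with the step taken from the 33 h array and 46.8% with the 36 and 39 h arrays swapped, against 2.20%, 8.69% and 11.0% of all probes. After a step up, the share at least 1.2-fold higher was 3.35% without background correction, 5.60% with an offset of 50, 12.6% with median scaling and 28.4% with the arrays swapped, against 1.32%, 4.98%, 8.38% and 10.8% of all probes. With 1 array left out the difference of VAMP8 ran from -0.0028, without the 45 h array, to 0.20. This was the 1 reversal among the genes followed through the alternatives, and its cause was not tested. Those genes were the ones named by call or lowest p and some of the genes the paper names. For other named genes, such as FEN1 and KIFC1 with differences near 0, the sign was not followed. EZH2 and KNTC2 were each called under 7 of 15 alternatives and NOL5A under 5, with adjusted p from 0.0110, 0.0137 and 0.0028 up to 0.894. Low signal over background limits MCM6, LCE1F, SLCO1B1 and ZBTB41. No paired analysis was possible because each time point has 1 array and the numbers only name arrays within a pair.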
